A study of Arabidopsis thaliana with 119 samples.

Results

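The genes described here are 9 small plant glutaredoxins of class III, out of 32833 genes counted in rosettes of Arabidopsis thaliana. They are set by a rule on locus IDs: 3 encode signals that travel from shoot to root when nitrogen is short (AT1G06830, AT2G47880 and AT3G62960, the CEPD type), and 6 belong to a nitrate-regulated group, with 5 tandem copies on chromosome 4 (AT4G15660, AT4G15670, AT4G15680, AT4G15690 and AT4G15700) and AT3G62930 on chromosome 3. The rule uses no measured value, but the members were chosen with earlier results of these data known, so their calls and ranks are descriptive. All 9 were among the 20025 genes tested. RNA-seq covered 5 natural accessions, Sha, Tsu-0, Cvi-0, Bur-0 and Col-0, each under 4 regimes, in 6 libraries per group except Bur-0 W+N+ with 5. All plants were wild accessions without a transgene named in the labels, sampled at 31 days after sowing, after 23 days in short days on a Phenoscope, a robot that rotates and waters pots. The control regime (W+N+) gave 160.45 ± 7.96 ml of a 5 mM nitrate solution in all, and drought (W-N+) gave 50.85 ± 4.67 ml at 5 mM. Nitrogen deficiency (W+N-) gave 161.93 ± 11.07 ml at 0.5 mM, and combined stress (W-N-) gave 50.70 ± 4.10 ml at 1.5 mM. The nitrate supplied, volume times concentration, was 802 µmol for control plants and 254 µmol for drought plants. It was 80.97 µmol under nitrogen deficiency and 76.05 µmol under combined stress, so this pair received nearly equal nitrate and differed in water and in the strength of the solution. Drought plants received less nitrate as well as less water, and the effects of water and nitrate cannot be told apart in that contrast.

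Glutaredoxins are small proteins that use glutathione to reduce or bind thiols. Class III, whose active site opens with a pair of cysteines, occurs in land plants, and members of it bind TGA transcription factors, and some bind TOPLESS corepressors through the end of the protein. In the CEPD pathway, roots short of nitrogen send CEP peptides upward, receptor kinases in the shoot perceive them, and CEPD-type glutaredoxins made in leaf phloem move down to the root and raise high-affinity nitrate uptake. The nitrate-regulated class III genes go the other way: nitrate induces them, through a route that includes cytokinin and type-B response regulators, and they restrain root growth.

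The coding sequence around the active site is shown because it differs between the 3 CEPD-type members and the other 6. Given are coding positions 37 to 96 of each gene, 5′ to 3′ on the coding strand (RefSeq, TAIR10.1), with the 4 codons that start with the cysteine pair in capitals. AT2G30540, the remaining gene of the CEPD family and not among the 9, is included for comparison; it has ATG where the CEPD-type members have TTG or CTC, and its averaged level rose in nitrogen deficiency (log2 0.74 ± 0.10 SE), with calls in Bur-0, Sha and Tsu-0 and none in Col-0 (log2 0.07 ± 0.21 SE) or Cvi-0 (log2 0.09 ± 0.28 SE).
AT1G06830: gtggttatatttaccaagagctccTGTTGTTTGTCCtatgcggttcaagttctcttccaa
AT2G47880: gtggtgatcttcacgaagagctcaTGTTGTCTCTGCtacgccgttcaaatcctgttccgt
AT3G62960: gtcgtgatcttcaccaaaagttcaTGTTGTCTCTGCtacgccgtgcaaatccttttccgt
AT2G30540: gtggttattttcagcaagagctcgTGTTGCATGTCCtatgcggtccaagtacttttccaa
AT4G15660: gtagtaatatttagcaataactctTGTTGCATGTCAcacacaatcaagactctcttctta
AT4G15670: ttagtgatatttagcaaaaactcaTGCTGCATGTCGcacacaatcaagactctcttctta
AT4G15680: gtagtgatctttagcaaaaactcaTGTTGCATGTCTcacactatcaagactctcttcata
AT4G15690: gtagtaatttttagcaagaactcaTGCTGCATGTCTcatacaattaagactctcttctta
AT4G15700: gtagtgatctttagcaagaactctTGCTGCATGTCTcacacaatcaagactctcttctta
AT3G62930: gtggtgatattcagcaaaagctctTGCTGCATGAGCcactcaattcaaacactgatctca

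The third capitalised codon was ATG in the 5 chromosome 4 copies, in AT3G62930 and in AT2G30540, and TTG or CTC in the 3 CEPD-type genes. Over the whole coding sequence the chromosome 4 copies were 88.3% to 93.2% identical to each other. AT2G47880 and AT3G62960 were 84.5% identical, AT1G06830 was 73.1% and 73.5% identical to those genes and 80.9% identical to AT2G30540. Coding identity between a CEPD-type gene and any of the other 6 members was at most 60.8%. Each gene has a single exon and a coding length of 309 bases, or 300 bases in AT1G06830. The 5 copies follow each other on the plus strand of chromosome 4 with no other protein-coding gene between them. AT3G62930 and AT3G62960 lie 2 protein-coding genes apart on chromosome 3 and are transcribed from opposite strands, and the gene AT3G62950 between them is a further class III glutaredoxin.

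Because the copies are so alike, reads could be assigned to the wrong one. Of all 50-base windows in their transcripts, 0.613% to 4.74% also occurred elsewhere in the nuclear genome, on either strand. No 100-base window did, and the other 4 members shared none at either length. The 5 copies are therefore given both singly and as their sum. AT2G47885 overlaps AT2G47880 on the opposite strand and had 0 counts in every library. All accessions were counted on 1 set of gene models, so a level set between accessions is less certain than a treatment effect measured inside one of them.

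Library totals ran from 9698708 to 110420763 counts, with a median of 17998300. From earlier results of these data, with no measure of distance given here, 4 libraries were taken as far from their groups. These were replicate c of Cvi-0 W+N+, replicate f of Col-0 W+N+, replicate d of Tsu-0 W+N- and replicate c of Bur-0 W-N-. Some results that rest on one of them are also given without it. A code in the library titles, P3ID33 or P3ID34, whose meaning the labels do not give, entered the fit as a term. Whether the libraries of a group are separate plants is not in the labels; the p-values measure only the spread among these libraries, which may be technical. Among markers, 6 of mesophyll summed to a median of 44769 CPM or more in every regime, while 3 of 5 flower markers and 3 of 4 root markers had medians under 0.1 CPM. The 4 root markers together still had medians of 17.6 to 25.5 CPM by regime, with 54.4 CPM in the highest library. CPM is the count scaled to TMM library size.

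Nitrogen deficiency raised the 3 CEPD-type genes and lowered the other 6. Averaged over accessions, AT3G62960 was 27.1-fold higher than in control, AT2G47880 12.2-fold higher and AT1G06830 2.44-fold higher. The 5 chromosome 4 copies, summed, were 70.5-fold lower and AT3G62930 7.03-fold lower. All 9 passed the test at an adjusted p below 0.05, against 68.0% of all genes tested, with 36.6% of genes higher and 31.4% lower.

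AT3G62960 was almost silent in control rosettes. Its lowest, median and highest control libraries had 0.104, 0.244 and 0.567 CPM in Col-0, 0.119, 0.262 and 0.382 in Bur-0, 0.247, 0.371 and 0.581 in Cvi-0, 0, 0.207 and 0.4098 in Sha, and 0.286, 0.392 and 0.547 in Tsu-0. In nitrogen deficiency they had 4.38, 5.81 and 7.06 CPM in Col-0, 4.67, 9.82 and 12.2 in Bur-0, 4.98, 5.81 and 9.699 in Cvi-0, 4.499, 7.54 and 11.9 in Sha, and 8.83, 11.5 and 24.4 in Tsu-0. The groups stood apart in all 5 accessions, as did 1.82% of genes tested in the higher direction. For groups apart in fewer accessions, here and below, no share of all genes was computed. The averaged change was log2 4.65 ± 0.15 SE, edgeR adjusted p = 1.81e-52, from 0.313 ± 0.0805 CPM (SD over accession means, n = 5) to 8.49 ± 3.06 CPM. Of the other 20024 genes tested, 1 had a larger fitted rise. The fold was 21.3 within code P3ID33, 33.4 within P3ID34 and 25.7 without replicate d of Tsu-0 W+N-.

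AT2G47880 had 0.2596, 0.844 and 1.799 CPM in Col-0, 0.262, 0.594 and 1.02 in Bur-0, 0.246, 0.745 and 1.19 in Cvi-0, 0.547, 1.15 and 1.82 in Sha, and 1.21, 1.51 and 2.54 in Tsu-0 in its lowest, median and highest control libraries. Under nitrogen deficiency the values were 4.46, 5.83 and 12.8 CPM in Col-0, 4.68, 11.5 and 13.7 in Bur-0, 2.28, 4.004 and 8.26 in Cvi-0, 2.31, 7.19 and 28.96 in Sha, and 11.6, 15.7 and 97.7 in Tsu-0. Every nitrogen-deficient library was above every control library of its accession. The averaged change was log2 3.39 ± 0.21 SE, edgeR adjusted p = 3.84e-29, and 14 genes had a larger fitted rise. Its spread among libraries was wide: Sha ran from 2.31 to 29.0 CPM, and the value of 97.7 CPM in Tsu-0 came from replicate d, where the next highest was 19.96 CPM. Without that library the averaged fold was 9.49. It was 8.45 within P3ID33 and 16.1 within P3ID34, the code that holds this library.

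AT1G06830 differed in having a substantial level in every regime. Its control libraries had 5.75, 8.698 and 20.2 CPM in Col-0, 4.24, 4.66 and 5.37 in Bur-0, 3.995, 7.02 and 8.89 in Cvi-0, 9.07, 10.2 and 15.9 in Sha, and 6.35, 6.94 and 7.18 in Tsu-0 at the lowest, median and highest. In nitrogen deficiency they had 10.6, 16.9 and 23.3 CPM in Col-0, 10.2, 15.4 and 17.4 in Bur-0, 11.1, 13.7 and 22.1 in Cvi-0, 19.1, 25.4 and 42.1 in Sha, and 13.01, 20.7 and 51.3 in Tsu-0. The groups stood apart in 4 accessions and overlapped in Col-0, where control libraries reached 20.2 CPM. In Col-0 both groups divided by code: control libraries had 5.75 to 6.23 CPM in P3ID34 and 11.2 to 20.2 in P3ID33, and nitrogen-deficient ones 10.6 to 15.1 and 18.6 to 23.3, so that P3ID34 was apart and P3ID33 overlapped. The averaged change was log2 1.33 ± 0.10 SE, edgeR adjusted p = 3.61e-23, with 417 genes rising more, and the fold was 2.11 and 2.88 within the codes. Per kilobase of transcript, AT1G06830 was the highest of the 3 in control (14.6 CPM, against 1.51 for AT2G47880 and 0.458 for AT3G62960) and in nitrogen deficiency (35.7, 18.4 and 12.4 CPM), so the ratio between them narrowed. AT2G30540, which shares most sequence with AT1G06830, rose less, from 2.66 to 4.68 CPM (log2 0.74 ± 0.10 SE, edgeR adjusted p = 5.18e-10).

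**Figure D1:**
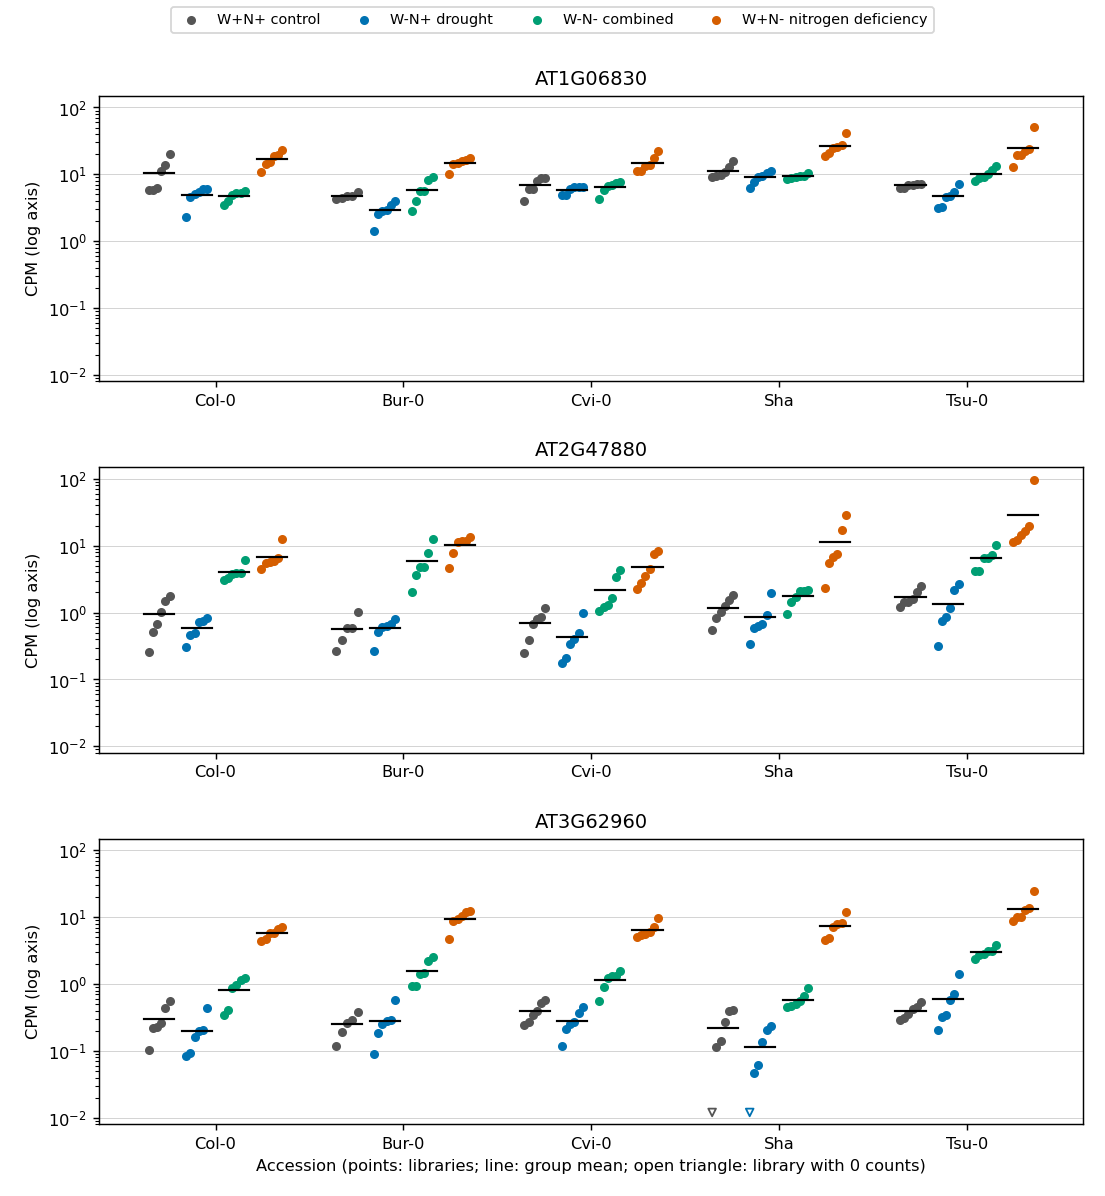
Levels of the CEPD-type genes AT1G06830, AT2G47880 and AT3G62960 in every library, as CPM on a log axis, by accession and regime. Points are libraries, lines are group means and open triangles mark libraries with 0 counts. The mean of the nitrogen-deficient libraries is the highest of each accession, and for AT3G62960 the mean of the combined-stress libraries lies between theirs and those of control and drought.

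CEPD-type signals are made in phloem, and 4 phloem markers were summed beside them. The median sum was 187 CPM in control, 225 in drought, 238 in nitrogen deficiency and 241 in combined stress, and the libraries ran from 106 to 243 CPM in control and from 127 to 312 CPM in nitrogen deficiency. Of these markers, 1 had 0 counts in every library. In whole rosettes, fewer cells of a type and less RNA per cell cannot be told apart, and the part of tissue makeup in these results was not tested.

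The 5 chromosome 4 copies fell from a clear level to near nothing. Summed, their lowest, median and highest control libraries had 13.3, 16.5 and 24.4 CPM in Col-0, 6.995, 11.8 and 12.7 in Bur-0, 12.1, 18.6 and 22.7 in Cvi-0, 17.5, 20.8 and 27.6 in Sha, and 5.99, 10.8 and 13.4 in Tsu-0. In nitrogen deficiency the sums were 0, 0.175 and 0.452 CPM in Col-0, 0, 0 and 0.0544 in Bur-0, 0, 0.0355 and 0.0645 in Cvi-0, 0.0666, 0.146 and 3.88 in Sha, and 0, 0 and 0.432 in Tsu-0. All nitrogen-deficient libraries were below all control libraries of their accession, for the sum and for each copy, as were 1.95% of genes tested in the lower direction. Of the 30 nitrogen-deficient libraries, 12 had no count for any copy. The 5 copies together had 142 counts there, against 9402 in the 29 control libraries.

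The library Sha W+N- f accounted for 69 of those 142 counts. Its sum was 3.88 CPM, where the other Sha libraries ran from 0.0666 to 0.396 CPM, and it also had the lowest AT2G47880 and AT3G62960 of its group, at 2.31 and 4.499 CPM. Without it, the averaged fall of the sum was 160.3-fold instead of 70.5-fold. Within code P3ID33, which holds that library, the fall was 46.4-fold, and within P3ID34 it was 184-fold. Taken singly and with all libraries, the copies fell 51.7-fold (AT4G15700), 55.3-fold (AT4G15660), 67.2-fold (AT4G15690), 132-fold (AT4G15680) and 142-fold (AT4G15670) in averaged CPM. These ratios rest on 11 to 48 counts per copy in nitrogen deficiency. In Cvi-0, where AT4G15700 had no count, its fall was at least 139-fold, against a floor of 3 counts over the group. The largest edgeR adjusted p of the 5 averaged falls was 1.74e-41.

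AT3G62930, the member outside the cluster, fell as well but kept a measurable level. Its control libraries had 0.918, 2.07 and 4.399 CPM in Col-0, 0.509, 2.201 and 2.75 in Bur-0, 0.371, 1.16 and 1.398 in Cvi-0, 1.74, 2.23 and 2.94 in Sha, and 1.704, 2.39 and 3.29 in Tsu-0 at the lowest, median and highest. The nitrogen-deficient libraries had 0.185, 0.312 and 0.847 CPM in Col-0, 0, 0.06204 and 0.187 in Bur-0, 0.08304, 0.229 and 0.457 in Cvi-0, 0.119, 0.394 and 1.29 in Sha, and 0, 0.232 and 0.5204 in Tsu-0. The groups stood apart in every accession except Cvi-0. The averaged change was log2 -2.96 ± 0.19 SE, edgeR adjusted p = 9.71e-28, and 27 genes had a larger fitted fall. The fall was 7.19-fold within P3ID33 and 6.47-fold within P3ID34. The summed mesophyll markers moved in the same direction as these 6 genes. Their median was 75132 CPM in control and 44769 CPM in nitrogen deficiency. The sum of 2 senescing-leaf markers rose from a median of 133 to 254 CPM. In each of these regimes, however, 1 of the 2 had a median below 0.1 CPM. The part of tissue makeup in the result was not tested.

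**Figure D2:**
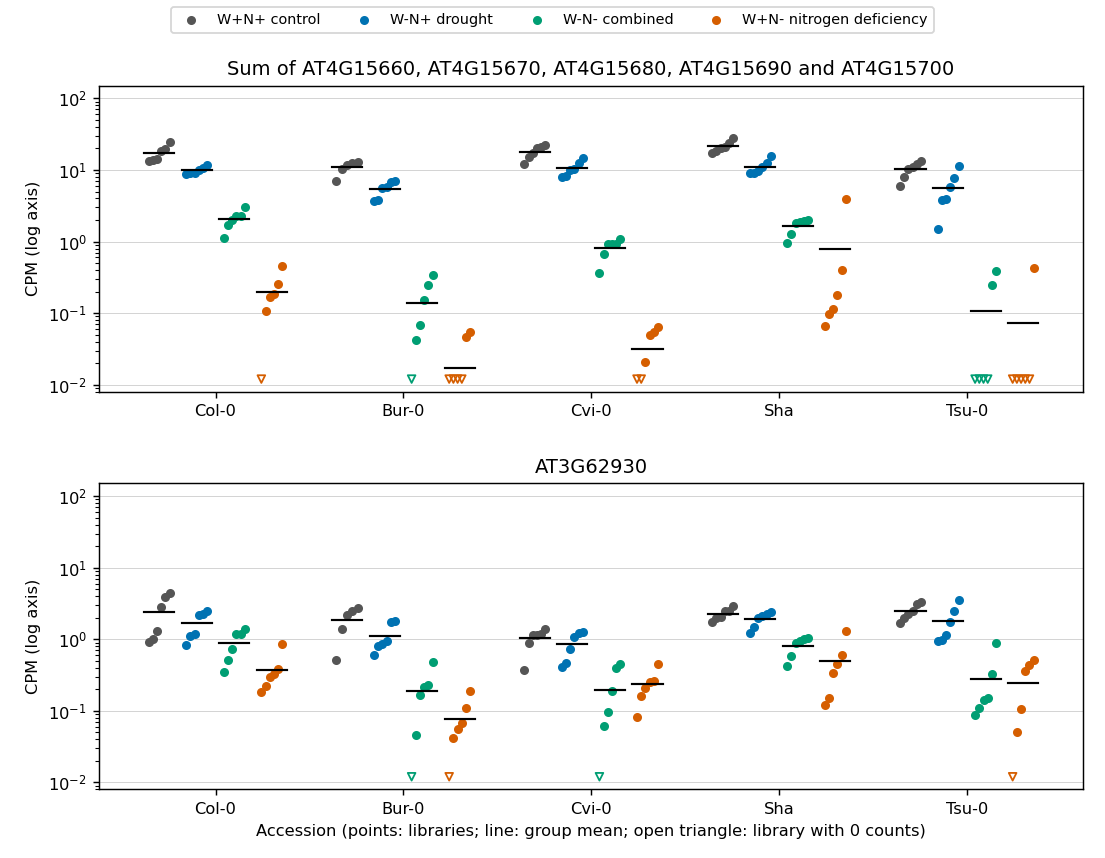
Summed level of the 5 chromosome 4 copies, above, and level of AT3G62930, below, in every library, as CPM on a log axis, by accession and regime. Points are libraries, lines are group means and open triangles mark libraries with 0 counts. The sums fall from 5.99 to 27.6 CPM in control to at most 0.452 CPM in every nitrogen-deficient library except Sha W+N- f at 3.88 CPM.

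Averaged over accessions, combined stress left all 9 genes closer to control than nitrogen deficiency did. It supplied no more nitrate in all, but in less water and at 1.5 mM instead of 0.5 mM, and these differences cannot be told apart. Not every accession followed the average: in Cvi-0, AT3G62930 had a mean of 0.198 CPM in combined stress and 0.237 CPM in nitrogen deficiency. AT3G62960 reached 1.42 ± 0.9505 CPM (SD over accession means, n = 5), 4.54-fold above control and 5.97-fold below nitrogen deficiency. AT2G47880 reached 4.08 ± 2.15 CPM, 4.01-fold above control and 3.04-fold below nitrogen deficiency. AT1G06830, at 7.33 ± 2.31 CPM, did not pass the test against control (log2 -0.12 ± 0.10 SE, edgeR adjusted p = 0.3199) and was 2.68-fold below nitrogen deficiency. The chromosome 4 copies summed to 0.952 ± 0.879 CPM, 16.4-fold below control and 4.31-fold above nitrogen deficiency. AT3G62930, at 0.473 ± 0.345 CPM, was 4.24-fold below control and 1.66-fold above nitrogen deficiency.

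Against control, 8 of 9 members passed the test, 2 higher and 6 lower, where 57.3% of all genes passed, 30.6% higher and 26.6% lower. Set directly against nitrogen deficiency, all 9 passed, the 3 CEPD-type genes lower and the other 6 higher, where 40.8% of all genes passed, 21.2% lower and 19.6% higher. The difference for AT3G62960 was log2 -2.73 ± 0.12 SE, edgeR adjusted p = 2.19e-38, and 2 of all genes tested had a larger fitted fall. Its lowest, median and highest combined-stress libraries had 0.345, 0.918 and 1.22 CPM in Col-0, 0.9197, 1.43 and 2.52 in Bur-0, 0.559, 1.27 and 1.55 in Cvi-0, 0.459, 0.532 and 0.862 in Sha, and 2.33, 2.94 and 3.88 in Tsu-0. Each of these groups lay below the nitrogen-deficient libraries of its accession without overlap, as did 0.0849% of genes tested. Within the codes AT3G62960 was 5.04-fold (P3ID33) and 6.93-fold (P3ID34) lower than in nitrogen deficiency.

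AT2G47880 under combined stress had 3.09, 3.81 and 6.21 CPM in Col-0, 2.01, 4.78 and 12.7 in Bur-0, 1.06, 1.46 and 4.397 in Cvi-0, 0.959, 1.89 and 2.203 in Sha, and 4.13, 6.57 and 10.2 in Tsu-0 at the lowest, median and highest. These libraries overlapped with nitrogen deficiency in Col-0, Bur-0 and Cvi-0 and stood below it in Sha and Tsu-0. The averaged difference was log2 -1.49 ± 0.18 SE, edgeR adjusted p = 4.33e-12, and without Tsu-0 W+N- d the ratio of means was 2.37-fold. AT1G06830 had 3.504, 5.06 and 5.72 CPM in Col-0, 2.87, 5.63 and 9.02 in Bur-0, 4.28, 6.81 and 7.76 in Cvi-0, 8.598, 9.36 and 10.4 in Sha, and 7.94, 9.65 and 13.4 in Tsu-0. Its groups stood below nitrogen deficiency in every accession except Tsu-0, where 1 combined-stress library overlapped (log2 -1.45 ± 0.10 SE, edgeR adjusted p = 1.20e-24 on average).

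The summed copies had 1.11, 2.12 and 3.04 CPM in Col-0, 0, 0.111 and 0.336 in Bur-0, 0.364, 0.916 and 1.09 in Cvi-0, 0.958, 1.86 and 1.98 in Sha, and 0, 0 and 0.388 in Tsu-0 in combined stress at the lowest, median and highest. They stood below control and below drought without overlap in all 5 accessions, as each copy did, against 0.534% and 0.365% of genes tested. Without Sha W+N- f the sum was 9.799-fold above nitrogen deficiency instead of 4.31-fold. The rise over nitrogen deficiency is given in counts by accession: the copies together had 224 counts in combined stress and 22 in nitrogen deficiency in Col-0, 90 and 4 in Cvi-0, 16 and 2 in Bur-0, 17 and 12 in Tsu-0, and 216 and 102 in Sha. That difference between accessions was not tested. AT3G62930 had 0.345, 0.9499 and 1.38 CPM in Col-0, 0, 0.191 and 0.487 in Bur-0, 0, 0.142 and 0.444 in Cvi-0, 0.426, 0.918 and 1.03 in Sha, and 0.0872, 0.146 and 0.874 in Tsu-0 in combined stress, and its groups overlapped with nitrogen deficiency in all 5 accessions (log2 0.66 ± 0.23 SE, edgeR adjusted p = 0.0161). This difference was lost within P3ID34 and without replicate f (edgeR adjusted p up to 0.646). Within P3ID33, which holds Sha W+N- f, the copies other than AT4G15680 did not pass the test against nitrogen deficiency, and AT4G15670, AT4G15690 and AT4G15700 did not without replicate b. Their CPM ratios within P3ID33 were still above 1, at 2.299 for AT4G15660, 5.89 for AT4G15670, 2.98 for AT4G15690 and 2.1995 for AT4G15700. The edgeR adjusted p was 0.144 for AT4G15660 and close to 1 for the other 3, which had 7 to 35 counts in nitrogen deficiency there; why edgeR gave so high a p was not tested. Against drought, which had nearly the same volume of solution, the 3 CEPD-type genes were higher and the other 6 lower, all past the test, where 46.0% of all genes were, 25.1% higher and 20.9% lower. AT2G47880 was 5.39-fold and AT3G62960 4.86-fold above drought, AT1G06830 1.34-fold, and the summed copies were at 0.952 CPM against 8.57 CPM in drought.

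Drought alone lowered 7 of the 9 genes and none rose past the test, where 23.7% of all genes passed, 10.6% higher and 13.1% lower. The summed copies went from 15.6 ± 4.85 to 8.57 ± 2.77 CPM, 1.82-fold lower, and were 1.79-fold and 1.84-fold lower within the codes. Their drought libraries had 8.77, 9.605 and 11.7 CPM in Col-0, 3.71, 5.73 and 7.04 in Bur-0, 8.101, 10.12 and 14.6 in Cvi-0, 8.97, 10.4 and 15.7 in Sha, and 1.48, 4.87 and 11.3 in Tsu-0 at the lowest, median and highest. AT4G15680 and AT4G15700 lay below every control library in Bur-0, Cvi-0 and Sha, and AT4G15660 did so in Sha. AT4G15670 and AT4G15690 overlapped with control in every accession. How many of all genes lay apart in this way was not computed, so whether such separation is unusual in drought is not known. The log2 changes of the single copies ran from -0.96 ± 0.14 SE for AT4G15700 (edgeR adjusted p = 1.52e-08) to -0.83 ± 0.14 SE for AT4G15690 (edgeR adjusted p = 1.57e-06).

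AT1G06830 fell 1.47-fold in drought (log2 -0.58 ± 0.10 SE, edgeR adjusted p = 6.91e-06), opposite to its change in nitrogen deficiency. Its drought libraries had 2.298, 5.22 and 6.11 CPM in Col-0, 1.44, 2.88 and 4.02 in Bur-0, 4.904, 6.21 and 6.55 in Cvi-0, 6.15, 9.295 and 11.2 in Sha, and 3.12, 4.67 and 7.09 in Tsu-0. They lay below every control library in Bur-0 alone. AT3G62930 was 1.36-fold lower (log2 -0.41 ± 0.15 SE, edgeR adjusted p = 0.0338), with drought libraries at 0.821, 1.69 and 2.499 CPM in Col-0, 0.599, 0.9004 and 1.796 in Bur-0, 0.405, 0.894 and 1.27 in Cvi-0, 1.22, 2.03 and 2.36 in Sha, and 0.949, 1.44 and 3.51 in Tsu-0 that overlapped with control in all 5 accessions. That call was lost without the code as a term, within either code, without replicates c, d or f, and without Bur-0 W+N+ d, with edgeR adjusted p up to 0.323. AT2G47880 did not pass the test, at 0.758 CPM against 1.02 in control (log2 -0.40 ± 0.25 SE, edgeR adjusted p = 0.265), and AT3G62960 did not, at 0.293 against 0.313 CPM (log2 -0.27 ± 0.21 SE, edgeR adjusted p = 0.393). For AT3G62960 these means rest on 231 counts in 30 drought libraries and 198 in 29 control libraries, and a modest change would not be detectable at this depth.

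The drought libraries of AT2G47880 had 0.301, 0.607 and 0.823 CPM in Col-0, 0.265, 0.622 and 0.794 in Bur-0, 0.175, 0.366 and 0.977 in Cvi-0, 0.338, 0.6505 and 1.99 in Sha, and 0.316, 1.02 and 2.69 in Tsu-0 at the lowest, median and highest, and those of AT3G62960 had 0.0839, 0.182 and 0.444 CPM in Col-0, 0.0884, 0.266 and 0.577 in Bur-0, 0.117, 0.2597 and 0.453 in Cvi-0, 0, 0.0986 and 0.234 in Sha, and 0.204, 0.4601 and 1.42 in Tsu-0. Both sets overlapped with control in every accession. Within single accessions, only 10 of the 45 drought tests of the 9 members passed, 2 in each accession, where 45 of 45 passed in nitrogen deficiency and 41 of 45 in combined stress. In drought 6.17% of all genes passed in Col-0, 3.27% in Bur-0, 1.62% in Cvi-0, 1.72% in Sha and 5.85% in Tsu-0. In nitrogen deficiency 42.5%, 41.5%, 42.5%, 38.3% and 50.8% passed, and in combined stress 31.2%, 32.2%, 19.7%, 17.6% and 37.5%, in the same order of accessions. The drought count was 2 without the code as a term and 19 under limma voom.

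The response to both stresses together was less than the sum of the separate responses on the log2 scale for all 9 members. Nitrate supply was not a full factorial. Drought plants also received less nitrate than control plants, and the combined-stress solution was 1.5 mM, against 0.5 mM in nitrogen deficiency. The sum therefore holds a lowered nitrate supply in both of its parts, and an interaction of water with nitrogen cannot be told apart from this. Non-additivity, the combined effect less the drought and nitrogen effects, was negative for the 3 genes that rose in nitrogen deficiency and positive for the 6 that fell, and all 9 passed the test, against 30.2% of all genes, 14.8% negative and 15.3% positive. AT3G62960 had log2 -2.46 ± 0.27 SE, edgeR adjusted p = 8.03e-13, and 1 of all genes tested had a lower value. AT2G47880 had log2 -1.09 ± 0.31 SE, edgeR adjusted p = 0.004104, AT1G06830 log2 -0.87 ± 0.14 SE, edgeR adjusted p = 5.07e-07 and AT3G62930 log2 1.07 ± 0.28 SE, edgeR adjusted p = 0.00134. For the chromosome 4 copies the size of this term depends on how near-zero counts are fitted, so only its sign is given. Within P3ID33 and without replicate b, AT4G15670, AT4G15690 and AT4G15700 did not pass, and within the single codes AT2G47880 did not (edgeR adjusted p up to 0.162). Within P3ID34, AT3G62930 did not pass either (log2 0.60, edgeR adjusted p = 0.357). These contrasts share control, drought and nitrogen-deficient libraries.

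AT1G06830 behaved differently between accessions. Under combined stress it was lower than control in Col-0 (log2 -1.07 ± 0.23 SE, edgeR adjusted p = 1.12e-04) and higher in Tsu-0 (log2 0.56 ± 0.22 SE, edgeR adjusted p = 0.0372), and the groups stood apart in both. In Col-0 the mean went from 10.5 ± 5.799 CPM (SD, n = 6) to 4.76 ± 0.857, and in Tsu-0 from 6.81 ± 0.375 to 10.15 ± 1.98. It did not pass the test in Bur-0, Cvi-0 and Sha. The accession-by-stress interaction of AT1G06830 had an edgeR adjusted p of 0.00105 in combined stress and 0.0203 in nitrogen deficiency, where its log2 change ran from 0.73 in Col-0 to 1.89 in Tsu-0. AT2G30540 was also lower in Col-0 in combined stress (log2 -0.88 ± 0.23 SE, edgeR adjusted p = 0.00122) and higher in Tsu-0 (log2 1.15 ± 0.21 SE, edgeR adjusted p = 3.91e-06) and Bur-0 (log2 1.19 ± 0.25 SE, edgeR adjusted p = 5.56e-05), with an edgeR adjusted p of 2.88e-07 for the interaction.

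Within code P3ID33 the change of AT1G06830 in combined stress was log2 -1.66 ± 0.23 SE, edgeR adjusted p = 4.65e-07 in Col-0 and log2 0.68 ± 0.23 SE, edgeR adjusted p = 0.0257 in Tsu-0. Within P3ID34 neither change passed the test, with log2 -0.27 ± 0.30 SE, edgeR adjusted p = 0.605 in Col-0 and log2 0.45 ± 0.28 SE, edgeR adjusted p = 0.253 in Tsu-0, and the interaction had an edgeR adjusted p of 0.564. The Col-0 control libraries of P3ID33 were the high ones, so the size of the Col-0 fall moved with the code; the part of the code in this result was not tested beyond these values. The interaction of AT1G06830 in nitrogen deficiency was no longer called without the 4 libraries that stood apart (edgeR adjusted p = 0.251). Without them its log2 change in nitrogen deficiency was 0.98 in Col-0, 1.69 in Bur-0 and 1.51 in Tsu-0. Its combined-stress change in Col-0 was then log2 -0.84 ± 0.20 SE.

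Over all 9 members, the stress effect differed between accessions for 6 in combined stress (13.5% of all genes), 3 in nitrogen deficiency (16.1%) and 0 in drought (0.619%). In combined stress AT3G62930 fell least in Col-0 (log2 -1.28 ± 0.35 SE) and most in Bur-0 (log2 -3.24 ± 0.44 SE), with an edgeR adjusted p of 0.0108 for the interaction. The summed copies fell 8.43-fold in Col-0 and 13.01-fold in Sha, but 77.4-fold in Bur-0 and 96.1-fold in Tsu-0, and AT4G15690 and AT4G15700 passed the interaction test (edgeR adjusted p = 5.30e-05 and 7.61e-05). AT2G47880 rose most in Bur-0 (log2 3.36, or 2.97 without the 4 libraries that stood apart) and did not pass the test in Sha (log2 0.60). Its interaction had an edgeR adjusted p of 0.0499. AT3G62960 rose most in Tsu-0 (log2 2.93), with an edgeR adjusted p of 0.0364 for the interaction. The interaction calls of AT2G47880 and AT3G62960 were lost under limma voom, among other settings (adjusted p = 0.213 and 0.2101). In nitrogen deficiency the calls of AT4G15690 and AT4G15700 rested on Sha W+N- f: without it their edgeR adjusted p was 0.205 and 0.147, and AT4G15680 was called instead (edgeR adjusted p = 0.0349).

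**Figure D3:**
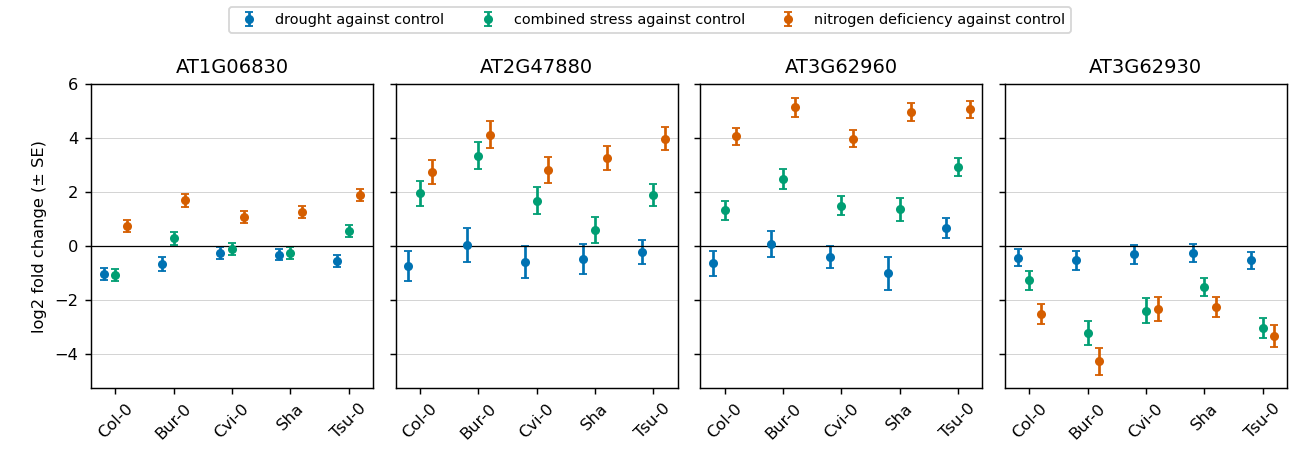
Log2 fold change against control, with its standard error, of AT1G06830, AT2G47880, AT3G62960 and AT3G62930 in each accession for drought, combined stress and nitrogen deficiency. In combined stress AT1G06830 is at -1.07 in Col-0 and at 0.56 in Tsu-0, while AT3G62960 is above 0 in every accession in both nitrogen-limited regimes.

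Levels also differed between accessions before any stress, as they did for most genes tested. In control, 8 of 9 members differed between accessions by the edgeR test over the 5 groups, near the 75.6% of all genes. AT3G62960 was the exception (adjusted p = 0.387). With P3ID33 alone, 4 members passed. AT1G06830 was highest in Sha (11.2 ± 2.65 CPM, SD, n = 6) and Col-0 (10.5 ± 5.799), which did not pass the test against each other (log2 0.16 ± 0.22 SE, edgeR adjusted p = 0.6199). Next came Cvi-0 (6.96 ± 1.92) and Tsu-0 (6.81 ± 0.375), not told apart either (log2 -0.05 ± 0.23 SE, edgeR adjusted p = 0.874), and Bur-0 was lowest (4.68 ± 0.441, n = 5). AT2G47880 was highest in Tsu-0 (1.698 ± 0.489 CPM) and passed the test there against Bur-0 and Cvi-0. AT3G62930 was lowest in Cvi-0 (1.03 ± 0.361 CPM), where the other accessions had 1.88 to 2.48 CPM.

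The counts of the 5 copies also stood in different proportions in the accessions. These shares were not tested, and the edgeR tests given below are of levels. AT4G15700 gave 35.1% ± 4.51 (SD, n = 6) of the copies' summed counts in Col-0 control rosettes and 31.04% ± 2.29 in Sha, but 17.7% ± 2.66 in Cvi-0 and 18.8% ± 1.08 in Tsu-0, with Bur-0 between at 25.7% ± 1.89 (n = 5). AT4G15670 had its lowest share in Col-0 (9.82% ± 2.85) and its highest in Tsu-0 (20.9% ± 1.31). The edgeR test of AT4G15700 between Tsu-0 and Col-0 gave log2 -1.63 ± 0.29 SE, edgeR adjusted p = 3.10e-06, and that of AT4G15670 gave log2 0.23 ± 0.30 SE, edgeR adjusted p = 0.586. In drought AT4G15700 gave 36.9% ± 6.73 in Col-0 and 14.7% ± 4.34 in Cvi-0. Since all accessions were counted on 1 set of gene models, a difference in copy sequence between accessions and a difference in expression cannot be told apart here.

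**Figure D4:**
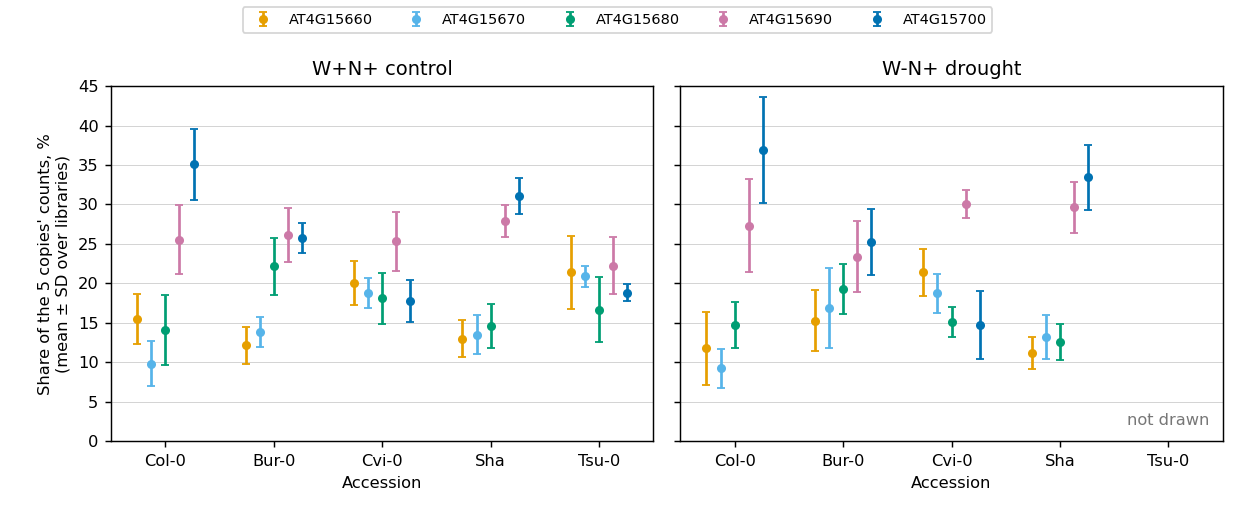
Share of the summed counts of the 5 chromosome 4 copies that each copy gave, as the mean and SD over libraries, by accession in control and drought. Tsu-0 in drought is not drawn because a library had fewer than 20 counts in all. AT4G15700 is the largest share in Col-0 and Sha and among the smaller ones in Cvi-0 and Tsu-0.

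Of 12 other class III glutaredoxins, 10 were tested; in nitrogen deficiency 4 rose and 5 fell (median log2 -0.67, against 0.05 over all genes), where 36.6% of all genes tested rose and 31.4% fell. AT4G33040 rose (log2 2.95 ± 0.10 SE), AT5G11930 rose (log2 2.72 ± 0.10) and AT5G18600 fell (log2 -2.76 ± 0.14), and in combined stress against nitrogen deficiency each of these moved back, by -1.13, -1.19 and 1.40. AT3G62950, which lies between AT3G62930 and AT3G62960, fell too (log2 -2.28 ± 0.24 SE), while AT2G47870, next to AT2G47880 with no protein-coding gene between, rose slightly (log2 0.53 ± 0.15 SE). These latter values were chosen for their position after they had been seen. Every gene given a direction from these lists, here and below, had an edgeR adjusted p below 0.05.

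Of the TGA factors, the transcription factors that class III glutaredoxins bind, 5 of 8 tested rose in nitrogen deficiency and none fell (median log2 0.28, against 0.05 over all genes), where 36.6% of all genes rose and 31.4% fell, shares that the next 3 lists are to be read against as well: TGA7 by log2 1.54 ± 0.06 SE, TGA3 by 0.88 ± 0.05 and OBF5 by 0.76 ± 0.05. All 5 TOPLESS corepressors rose (median 0.29), TPR3 among them (log2 0.64 ± 0.06). Of the type-B response regulators of cytokinin, 5 of 6 rose (median 0.51), among them RR10 (log2 0.54 ± 0.04). Among the NLP nitrate regulators, 6 of 9 rose and 1 fell (median 0.76), with AT3G59580 at log2 1.70 ± 0.10. Both glutathione reductase genes, which keep glutathione reduced, fell slightly (GR log2 -0.32 ± 0.03, GR1 -0.29 ± 0.03). Only 2 of 7 genes for CEP peptides and their receptors were tested: XIP1, a CEP receptor, rose (log2 0.68 ± 0.08) and the other receptor AT1G72180 fell (log2 -0.24 ± 0.06).

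Genes listed under high-affinity nitrate uptake, a process that CEPD signalling raises in roots, had calls in both directions in nitrogen-deficient rosettes. Levels in roots were not measured. Of 6 tested, 2 rose and 2 fell in nitrogen deficiency (median log2 -0.09), near the shares of all genes (36.6% and 31.4%), and 5 fell in drought, where 13.1% of all genes did (median log2 -0.83, against 0.00 over all genes). NRT2.5 rose (log2 4.59 ± 0.21 SE) and dropped back in combined stress against nitrogen deficiency (log2 -2.67 ± 0.17). NRT2:1 rose (log2 0.66 ± 0.16) and dropped back likewise (log2 -1.15 ± 0.17), while NRT2.7 fell slightly in nitrogen deficiency (log2 -0.20 ± 0.05). In combined stress against nitrogen deficiency 4 of the 6 were lower and 1 higher, where 21.2% of all genes were lower and 19.6% higher.

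Profiles were compared over the 20 group means, with the mean of each accession removed. The 3 CEPD-type genes were opposed to the other 6 members, AT1G06830 less closely so. The 5 copies had Pearson r of 0.984 to 0.997 with each other and 0.9497 to 0.956 with AT3G62930. AT2G47880 and AT3G62960 had r = 0.957 with each other, and AT1G06830 had 0.818 and 0.888 with them. Between a CEPD-type gene and any of the other 6, r ran from -0.925 to -0.629. For AT1G06830 alone it ran from -0.705 to -0.629. Among the 13808 other genes whose mean reached 5 CPM, the profile of AT3G62960 was most like those of OZF2 (highest), CAT5 (r = 0.987) and AP2 (r = 0.987). AT2G47880 was most like FD (0.983), RCD1 (0.982) and XGD1 (0.978), and AT1G06830 most like ACR3 (0.977), CNGC10 (0.976) and AT1G15125 (0.969). The summed copies were most like AT5G27390 (0.994), FAD5 (0.993) and, in the third place, PSRP2, and AT3G62930 most like AT1G78830 (0.976), CIPK3 (0.975) and MPPalpha (0.975). All points share the same libraries and 4 regimes, so these values describe likeness over this design alone.

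The promoters, taken as 250 bases before to 50 bases after the annotated start (RefSeq, TAIR10.1), were searched on both strands for 3 short motifs. TGACG, the core bound by TGA factors, was in none of the 9, where 23.1% of 27443 promoters had it. GAATC, a sequence that NIGT1 nitrate-response repressors bind, was in 6 of 9 (45.1% of promoters), and AGATT, a core that type-B response regulators bind, was in 6 of 9 (69.7%), with AT2G47880 and AT3G62930 lacking both. Neither motif divided the genes that rose from those that fell. A missing match says only that these letters are not in this window.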

How the data were processed

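Polyadenylated RNA of rosettes was extracted with an RNeasy Plant Mini kit and sequenced from TruSeq Stranded mRNA libraries, per the labels' protocols. The authors deposited 1 table of raw read counts per gene (32833 genes, 119 libraries). Trimmomatic 0.36 and HISAT2 are named in the submitters' processing notes; which tool counted reads, with which strand setting and on which build, is not given in the sources used here, and no coordinates are printed. Sequences and gene structures were looked up by locus ID in RefSeq TAIR10.1, and 32548 IDs matched a locus tag. Genes were filtered with filterByExpr, leaving 20025, and tested with edgeR 4.0.16 (R 4.3.3, TMM, quasi-likelihood) in 1 fit over 20 groups plus the code in the titles, with Benjamini-Hochberg adjustment over all genes tested and a gene called where that p was under 0.05. An averaged contrast is the mean over the 5 accessions. CPM ratios are ratios of mean CPM, counting intervals are exact Poisson at 95%, and a group at 0 was set against a floor of 3 counts over the group; both cover counting error only. Library totals of 9698708 to 110420763 counts set the precision. Libraries of a group differed by more than sampling noise (lowest mean chi-square per gene 2.97). The fit was tested on simulated data for the averaged nitrogen deficiency contrast over 19457 genes. All 50 genes changed at each of 4 fold sizes (1.5, 2, 4 and 8) were recovered, with 17 false calls. The simulated data had no accession or code effects. Changed genes were drawn from those with a mean of at least 1 CPM. The simulated spread followed the trend over genes, so genes with a wider spread of their own were not covered. Larger falls to near-zero counts, as in the chromosome 4 copies, were not covered. Alternatives were RLE size factors, no filter, no code term, single codes, a replicate block by letter, left-out replicates, the 4 libraries standing apart left out, each accession fitted alone, summed copies, limma voom 3.58.1 and DESeq2 1.42.0. All 9 members were named, with up to 3 genes of lowest adjusted p from each other list and the 3 most alike genes per profile. The members, the lists and the 4 libraries said to stand apart were chosen with earlier results of these data known.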

Additional observations from a re-analysis of the deposited data

Results flagged for a closer look

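In 12 of 117 sets of 5 or 6 libraries tested, the highest or lowest library lay beyond Dixon's 95% limit. Chance gives about 1 in 20 for independent, normally distributed values. The limit was applied to CPM without a log and the members share libraries, so the 12 sets cannot be read against that rate. Replicate d of Tsu-0 W+N- was the high library for all 3 CEPD-type genes. AT2G47880 had 97.7 CPM, where the others had 11.6 to 19.96. AT1G06830 had 51.3 CPM, where the others had 13.0 to 24.2. AT3G62960 had 24.4 CPM, where the others had 8.83 to 13.8. In Sha W+N-, replicate b was high for AT1G06830, at 42.1 CPM, where the others had 19.1 to 27.3.

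Other sets for AT2G47880 had a single high library. Col-0 W+N- f had 12.8 CPM, where the others had 4.46 to 6.47. Col-0 W-N- e had 6.21 CPM, where the others had 3.09 to 3.901. Sha W-N+ a had 1.99 CPM, where the others had 0.338 to 0.922. Among the chromosome 4 copies, Col-0 W+N+ b was high for AT4G15660 at 4.61 CPM, where the others had 2.02 to 2.51, and for AT4G15670 at 3.64 CPM, where the others had 0.991 to 1.94. Bur-0 W+N+ a was low for AT4G15680 at 1.91 CPM, where the others had 2.36 to 2.53, and for AT4G15690 at 1.44 CPM, where the others had 2.99 to 3.39. Sha W-N+ a was high for AT4G15690 at 5.18 CPM, where the others had 2.52 to 3.45.

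The effect of a stress differed between accessions by the edgeR interaction test in 9 cases. In nitrogen deficiency the adjusted p was 0.0203 for AT1G06830, 0.00650 for AT4G15690 and 0.00514 for AT4G15700. In combined stress it was 0.00105 for AT1G06830, 0.0499 for AT2G47880, 0.0364 for AT3G62960 and 0.0108 for AT3G62930. For AT4G15690 it was 5.30e-05 and for AT4G15700 7.61e-05 in combined stress.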

How the results depend on the processing

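All 9 members were called in nitrogen deficiency and in combined stress against drought, and 8 in combined stress, under all 22 alternatives; no called change of direction occurred. Of 1188 averaged values recomputed, 1163 kept their direction and side of the threshold and 25 lost the call; of 3105 within accessions, 2955 did so, 106 lost the call, 28 gained one and 16 moved. With P3ID33 alone, 5 members were called in combined stress against nitrogen deficiency and 5 in non-additivity instead of 9, and with P3ID34 alone 7 in non-additivity. Leaving out replicates gave 6 to 9 members in both of these, and without replicate b 3 chromosome 4 copies had an adjusted p of 1 with log2 values of the same direction; the cause was not tested. The 10 calls within accessions in drought were 2 without the code term, 1 with P3ID33 alone, 1 with P3ID34 alone, 1 with the copies summed and 19 with limma voom, 14 without Sha W+N- f, and 2 to 11 without single replicates. Accession-dependent members in nitrogen deficiency went from 3 to 0 with P3ID34 alone, 6 with the copies summed, 0 with limma voom and 5 with DESeq2, and 0 to 5 without single replicates. In combined stress they went from 6 to 2 with P3ID33 alone and 3 with P3ID34 alone, and 3 to 6 without single replicates. Members that differed between control groups went from 8 to 4 with P3ID33 alone. With the copies summed, the call of the sum was counted once for each of the 5 copies. A single code leaves 3 libraries in most groups. The cause of these shifts was not tested otherwise.

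Over all genes, drought calls went from 4737 to 2318 and 2456 with P3ID33 and P3ID34 alone, non-additivity calls from 6041 to 3007 and 3658, combined against nitrogen deficiency from 8168 to 4848 with P3ID33 alone, and combined against drought from 9221 to 6074 with P3ID34 alone. Accession-dependent drought calls went from 124 to 62 without the code term, 35 and 30 in the single codes, 56 to 82 without replicates a to e, and 227 with DESeq2. Those in nitrogen deficiency went from 3229 to 857 and 1358 in the single codes, 1992 without replicate b and 1955 without d. Those in combined stress went from 2712 to 1788 without the code term, 922 with P3ID34 alone, and 1714, 1648 and 1612 without replicates a, b and f.

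With the replicate letter as a block, 7, 9 and 8 members were called in drought, nitrogen deficiency and combined stress, as without it, and the calls within accessions in drought were 9 instead of 10. Same-letter libraries had a mean correlation of 0.0034, and 25 libraries were closest to their own letter. Removing Sha W+N- f was chosen after seeing the data.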
